A study of Mus musculus with 7 samples.

Results

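Cd38 and 9 other genes of nicotinamide adenine dinucleotide (NAD) metabolism were followed across 7 RNA-seq libraries of long-term haematopoietic stem cells (LT-HSCs), which keep up blood production for life. The 10 genes are Cd38, Bst1, Nampt, Nmnat1, Nmnat3, Naprt, Sirt1, Sirt3, Sirt7 and Parp1, out of 53458 genes with transcripts in the files. They were given as a list of names, and Cd38 was chosen by its lower level in Srp72+/- in these same libraries, with the others added when results of that comparison were known. Their genotype differences are therefore descriptions, and their place in the fit across all genes is given only as a count and supports nothing. The cells came from aged C57/BL6 mice, 4 wild type (WT, Srp72+/+) and 3 heterozygous (Srp72+/-), and each library is a separate sample in the labels. Srp72 encodes a subunit of the signal recognition particle, which brings translating ribosomes to the endoplasmic reticulum. The sources used here do not give the age in months, the sex or the part of Srp72 that was altered. Marrow cells were sorted as negative for Ter119, B220, CD3, Mac1, Gr1, Flt3 and CD48 and positive for Sca1, cKit and CD150, and their RNA was amplified before sequencing.

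NAD is a redox carrier that is also consumed as a substrate. CD38 and its relative BST1 (CD157) are surface enzymes that split NAD into nicotinamide and ADP-ribose or its cyclic form, while sirtuins and poly-ADP-ribose polymerases use it inside the cell. NAMPT and the NMNAT enzymes rebuild NAD from nicotinamide, and NAPRT opens the route from nicotinic acid. In adult mice CD38 is carried on the surface of long-term stem cells, and it is also found on B lineage and other immune cells, where its activity is known to lower tissue NAD with age.

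The libraries held between 18054322 and 35247472 estimated reads. Levels are given as CPM (reads of a gene for a fixed number of reads) on libraries scaled by TMM, a method that equalises the bulk of genes between libraries. Levels of different genes are compared only as TPM (transcripts for a fixed number of transcripts), which corrects for length. Values listed for a genotype follow the order WT 1 to WT 4 and Srp72+/- 1 to 3. Srp72 itself was at 99.6, 136.6, 103.0 and 88.4 CPM across WT, against 71.9, 45.7 and 109.8 CPM across Srp72+/-, so the groups overlapped. The summed level of 15 HSC identity genes was 239 CPM in WT 2 against 2617 to 3216 CPM in the other WT libraries and 1617 to 2766 CPM in Srp72+/-. WT 2 also had the highest sums of 11 neutrophil genes (40081 CPM, against 124 to 8833 CPM in the other WT libraries), 11 erythroid genes (9162 against 407 to 631 CPM) and 10 B and plasma cell genes (10631 against 61.3 to 818 CPM). In Srp72+/- these 3 sums were highest in replicate 1, at 12585, 6975 and 4426 CPM. For the 10 NAD genes the log2 fold change without WT 2 is given beside that from all libraries. In a bulk library, fewer cells of a type and less RNA per cell cannot be told apart.

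Cd38 (ENSMUSG00000029084) lies on the plus strand of chromosome 5 at 43868553 to 43912375 (GRCm38), and GENCODE M21 gives it 2 transcripts. Cd38-201 is the protein-coding form, with 8 exons, 3270 bases and a coding sequence of 912 bases. Cd38-202 is a single exon of 881 bases annotated as a retained intron. It shares 261 bases with exon 1 of Cd38-201 and runs 620 bases into the first intron, which is 31212 bases long. The 2 forms are shown at the point where they part, since the results below turn on how reads were divided between them. Both stretches hold the last 30 bases of exon 1 (chr5:43869091-43869120, plus strand) in lower case, and the capitals mark the 30 bases that follow in each transcript, which are the start of exon 2 (chr5:43900333-43900362) or of the intron (chr5:43869121-43869150).
Cd38-201: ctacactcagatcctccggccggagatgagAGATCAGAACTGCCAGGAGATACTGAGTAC
Cd38-202: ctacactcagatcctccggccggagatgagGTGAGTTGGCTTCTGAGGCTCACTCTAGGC
The spliced form thus joins exon 1 directly to exon 2, and the unspliced form continues into the intron.

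All 3 Srp72+/- libraries held less Cd38 than the lowest of the 4 WT libraries. It measured 29.5, 24.5, 24.6 and 35.3 CPM across WT, against 10.1, 11.3 and 9.10 CPM across Srp72+/-. The Srp72+/- libraries lay close together, and the lowest WT library was 2.16 times the highest Srp72+/- library. The means were 28.5 ± 5.13 CPM in WT (SD, n = 4) against 10.2 ± 1.12 CPM in Srp72+/- (SD, n = 3), or 2.80-fold lower in Srp72+/-. The log2 fold change in the edgeR fit was -1.49 (standard error 0.28). These levels rest on 383 to 786 estimated reads in WT and 190 to 300 in Srp72+/-.

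WT 2, the library low in HSC transcripts, did not stand apart in the CPM of Cd38. Its 24.5 CPM lay beside the 24.6 CPM of WT 3. In whole-gene TPM, however, WT 2 lay well below the other WT libraries, at 1.88 against 4.25 to 4.33. Without WT 2 the log2 fold change of Cd38 was -1.55 (standard error 0.29), and without both WT 2 and Srp72+/- 1 it was -1.55. When 1 library at a time was left out, it lay between -1.59 and -1.39. The groups did not overlap in any of these 7 sets. As they were already apart in all libraries, leaving 1 out could hardly bring an overlap, so nothing is read from this. B and plasma cell markers, from a lineage that also carries CD38, were higher in WT 2 and Srp72+/- 1 than in the other libraries, and their part in the Cd38 level was not tested.

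**Figure D1:**
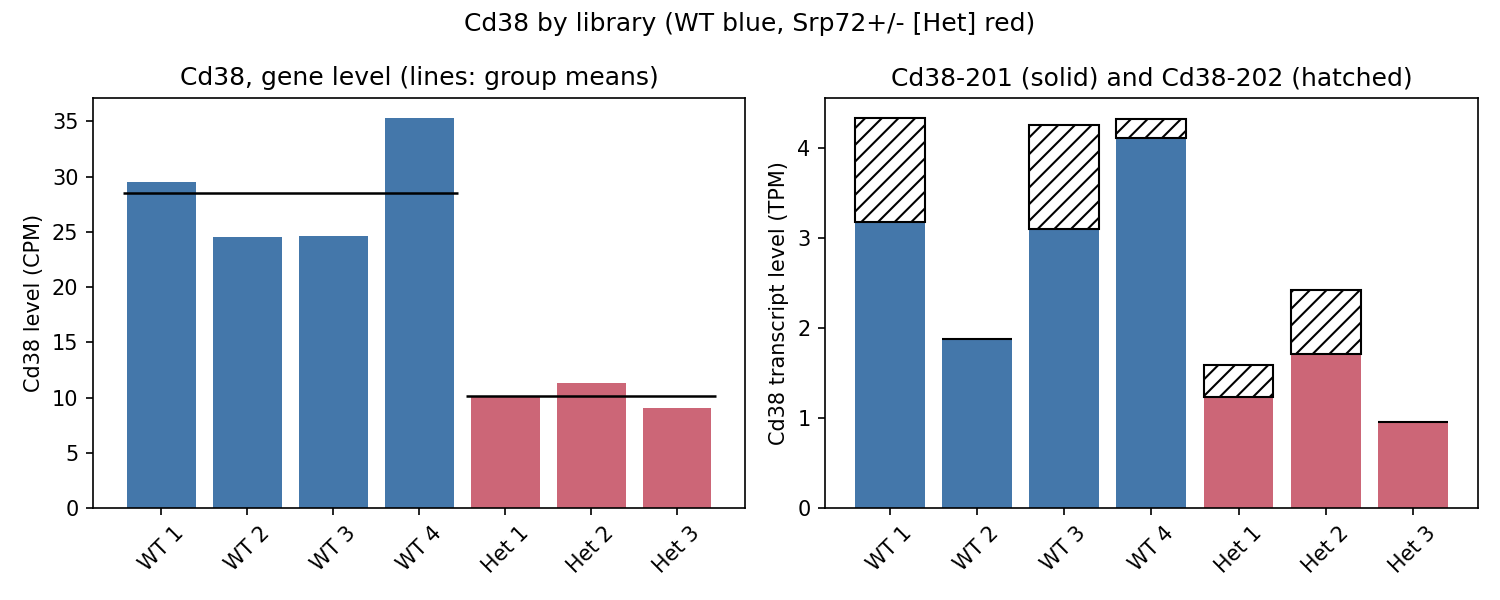
Cd38 in each library, as gene-level CPM (left, lines at the group means) and as TPM of its 2 annotated transcripts (right, Cd38-201 solid and Cd38-202 hatched), with WT in blue and Srp72+/- (Het) in red. In CPM the WT libraries sit between 24.5 and 35.3 and the Srp72+/- libraries between 9.10 and 11.3, while in TPM the total of WT 2 (1.88) lies below that of Srp72+/- 2 (2.42).

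Most Cd38 reads belonged to the protein-coding form. Cd38-201 had 494.6, 382.5, 479.0 and 778.0 estimated reads in WT 1 to WT 4 and 180.3, 234.9 and 299.5 in Srp72+/- 1 to 3. Cd38-202 had 32.2, 0, 33.6 and 7.6 reads in WT and 9.3, 19.2 and 0 in Srp72+/-. The unspliced form was thus estimated at 0 in 1 library of each genotype. There 3 reads, the limit that a count of 0 allows, would be 0.783% of the Cd38 reads of WT 2 and 1.0% of those of Srp72+/- 3. This limit covers counting error only, not the division of reads between the forms, which share 261 bases. Because Cd38-202 is short, its few reads weigh more on the TPM scale. Cd38-201 made up 85.3% ± 14.3 (SD, n = 4) of the Cd38 TPM in WT and 82.9% ± 15.2 (SD, n = 3) in Srp72+/-, a difference smaller than the spread between libraries.

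The separation of the genotypes depended on the scale. Cd38-201 was at 3.17, 1.88, 3.10 and 4.10 TPM in WT and at 1.24, 1.71 and 0.953 TPM in Srp72+/-, so the groups of the coding form did not overlap. The gene total, with Cd38-202, was at 4.33, 1.88, 4.25 and 4.31 TPM in WT and at 1.59, 2.42 and 0.953 TPM in Srp72+/-. On this scale the groups overlapped, since Srp72+/- 2 lay above WT 2. The median TPM over the 20314 tested genes was lowest in WT 2, at 1.30 against 1.90 to 3.20 in the other 6 libraries, though single genes such as Bst1 were at their highest there. Divided by that median, a scale chosen after seeing the data, Cd38 was at 2.02, 1.45, 1.58 and 1.87 in WT. It was at 0.619, 0.755 and 0.501 in Srp72+/-, and the groups did not overlap. The share of all genes that separate on this scale is not given, so nothing is read from this separation.

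Across all 20314 genes tested, 0 (0%) passed a false discovery rate of 0.05 in the edgeR quasi-likelihood test, in either direction, so 0 of the 10 NAD genes did. An unadjusted p below 0.05 was reached by 365 genes, and DESeq2 called 9 genes. Cd38 was one of these 9, which supports nothing, since it was chosen on this comparison. The CPM of the 2 genotypes did not overlap for 725 genes (3.57%), of which 423 were higher (2.08%) and 302 lower (1.49%) in Srp72+/-. Among the 10 NAD genes this held for 2, Cd38 and Nampt, both lower, and since Cd38 was chosen on this comparison nothing is read from that count. In TPM, 938 genes did not overlap (4.62%), 79 of them lower (0.389%), and 0 of the 10 NAD genes were among them. The 10 genes had a median log2 fold change of -0.21, with 7 lower and 3 higher, against a median of -0.0067 and 50.7% lower over all tested genes. Without WT 2 the median of the 10 was -0.14, again with 7 lower and 3 higher, against 0.036 over all genes. For 7 of the 10 the fold change from all libraries was smaller than its standard error.

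Bst1, the neighbour of Cd38 and the gene of the related surface enzyme, varied most of the 10. It lies on the plus strand of chromosome 5 at 43818885 to 43843986, and its end is 24567 bases before the start of Cd38. It measured 0.953, 40.0, 7.48 and 4.95 CPM across WT, against 13.4, 5.44 and 1.18 CPM across Srp72+/-. The groups overlapped widely, and WT 2 was 42.0 times WT 1. Within each genotype the highest Bst1 level was in the library with the highest neutrophil marker sum (WT 2 and Srp72+/- 1) and the lowest in the library with the lowest sum (WT 1, at 124 CPM, and Srp72+/- 3, at 1186 CPM). The sums of the B and plasma cell and the monocyte and macrophage markers were highest and lowest in the same libraries, from 61.3 to 10631 CPM and from 15.8 to 791 CPM in WT.

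The 11 neutrophil markers had no member at 0 in any library except Cebpe in WT 1, and the part of these 3 marker lists in the Bst1 level was not tested. The log2 fold change of Bst1 was -1.0001 (standard error 1.18), and 0.58 (standard error 0.90) without WT 2. Over the 7 libraries the log2 CPM of Cd38 and Bst1 had a Pearson r of 0.07, given as a description. Reads of Bst1 can overlap Fbxl5, a protein-coding gene on the opposite strand at 34.4 to 155 CPM, and the sources used here do not give the strand setting.

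**Figure D2:**
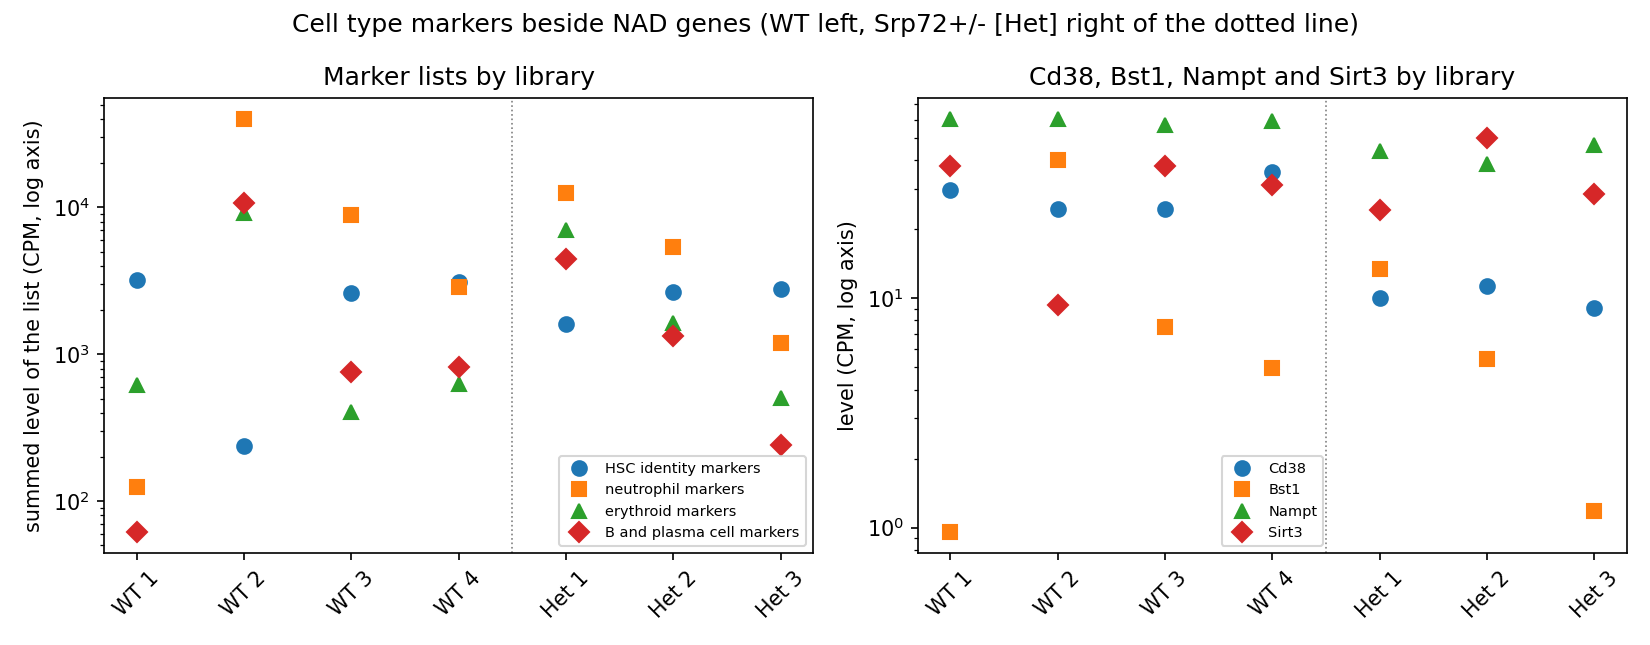
Summed CPM of 4 marker lists (left) and CPM of Cd38, Bst1, Nampt and Sirt3 (right) in each library on log axes, with WT left and Srp72+/- (Het) right of the dotted line. Bst1 is highest (40.0 CPM) and Sirt3 lowest (9.34 CPM) in WT 2, where the HSC sum is lowest, while Cd38 and Nampt in WT 2 lie with the other WT libraries.

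In the salvage route, Nampt, which encodes the rate-limiting enzyme that turns nicotinamide into nicotinamide mononucleotide, had the steadiest WT levels of the 10. It measured 60.6, 60.2, 57.1 and 59.2 CPM across WT, against 43.8, 38.3 and 46.8 CPM across Srp72+/-. All Srp72+/- libraries lay below all WT libraries, with a gap of 1.22-fold between the nearest pair. The means were 59.3 ± 1.58 CPM (SD, n = 4) and 42.9 ± 4.299 CPM (SD, n = 3), and the log2 fold change was -0.46 (standard error 0.19), and -0.45 without WT 2. Nampt overlaps Gdap10, a non-coding gene on the same strand at 11.4 to 25.1 CPM.

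The Nampt difference also depended on length correction. Nampt has 3 annotated transcripts, and the coding form Nampt-201 was at 4.89, 3.15, 5.43 and 4.89 TPM in WT and 3.98, 4.25 and 3.29 TPM in Srp72+/-. The short non-coding form Nampt-202 had only 2.1, 20.4, 14.7 and 9.1 reads in WT and 0, 32.3 and 58.4 in Srp72+/-, yet was at 4.47 and 3.50 TPM in Srp72+/- 2 and 3. With an offset for transcript length the log2 fold change of Nampt was -0.10 (standard error 0.32). In whole-gene TPM the means were 5.84 ± 1.02 TPM (SD, n = 4) for WT against 6.50 ± 2.38 TPM (SD, n = 3) for Srp72+/-, and the groups overlapped. The difference in log2(TPM + 0.1) was 0.10, opposite in sign to that in CPM. It was still below the median of 0.26 over all tested genes on that scale. TPM divided by each library's median is a scale chosen after seeing the data. On it, Nampt-201 alone was at 2.28, 2.43, 2.02 and 2.13 in WT and at 1.56, 1.33 and 1.73 in Srp72+/-. Its groups did not overlap, while those of the whole gene did, with a mean log2 difference of -0.20 (Srp72+/- minus WT). The share of all genes that separate on this scale is not given, so nothing is read from the separation.

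The NMNAT enzymes complete NAD from the mononucleotide, NMNAT1 in the nucleus and NMNAT3 in mitochondria. Nmnat1 was the lowest of the 10 per length, at a mean of 1.10 TPM over the 7 libraries. It measured 4.99, 4.60, 5.995 and 5.89 CPM across WT, against 3.92, 4.95 and 6.22 CPM across Srp72+/-, and the groups overlapped. Correction for length turned its direction, with a log2 fold change of 0.26 (standard error 0.41) under the length offset. Its difference in log2(TPM + 0.1) was 0.48, where the median over all tested genes was 0.26. Divided by the library median, a scale chosen after seeing the data, its TPM was 0.483, 0.379, 0.413 and 0.486 for WT. For Srp72+/- it was 0.509, 0.515 and 0.528, higher without overlap, unlike its CPM. The share of all genes that separate on this scale is not given, so nothing is read from this. Nmnat1 had 72 to 205 reads per library. Its form Nmnat1-201 had 15.1, 0, 0 and 0 of them in WT and 39.7, 3.2 and 24.8 in Srp72+/-. Nmnat3 measured 15.1, 12.5, 11.7 and 9.26 CPM across WT, against 13.7, 14.6 and 18.9 CPM across Srp72+/-. Its highest library was Srp72+/- 3 and its lowest WT 4, and WT 1 lay within the Srp72+/- range. The log2 fold changes were -0.09 ± 0.39 for Nmnat1 and 0.37 ± 0.31 for Nmnat3 (± standard error), and -0.16 and 0.39 without WT 2.

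Naprt, whose product starts the Preiss-Handler route from nicotinic acid, measured 7.85, 6.27, 11.4 and 6.74 CPM across WT, against 7.73, 7.18 and 2.88 CPM across Srp72+/-. Srp72+/- 3 lay below all other libraries, and the other Srp72+/- values lay within the WT range. Its log2 fold change was -0.45 (standard error 0.47), with -0.55 without WT 2 and -0.12 without Srp72+/- 3. More of its TPM was assigned to the retained-intron form Naprt-204 (56.1% ± 10.7 in WT, SD, n = 4, and 55.9% ± 21.95 in Srp72+/-, SD, n = 3) than to the coding form Naprt-201 (31.8% ± 12.8 and 23.4% ± 9.55). By estimated reads the order was the reverse, with means of 65.2% in WT and 58.4% in Srp72+/- for Naprt-201 against 20.5% and 24.4% for the shorter Naprt-204. Naprt overlaps Eef1d, a gene on the same strand at 40.9 to 73.0 CPM.

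Among the NAD-dependent deacylases, Sirt1, a nuclear member, measured 37.5, 52.8, 46.6 and 33.1 CPM across WT, against 31.9, 34.5 and 41.7 CPM across Srp72+/-. The groups overlapped, and the log2 fold change was -0.24 (standard error 0.25), and -0.12 without WT 2. The retained-intron form Sirt1-206 took 31.4% ± 3.52 (SD, n = 4) of the Sirt1 TPM in WT and 45.6% ± 6.72 (SD, n = 3) in Srp72+/-. The protein-coding forms together took 25.5% ± 8.83 and 26.0% ± 8.002. By estimated reads the share of Sirt1-206 was smaller, at 10.1% ± 2.17 in WT and 17.1% ± 3.94 in Srp72+/-. The coding forms held 28.1% to 75.0% of the reads across libraries. Sirt1-206 is 1 of 7 annotated Sirt1 transcripts. How many transcripts of the 10 genes differ in share as much is not given, so nothing is read from the Sirt1-206 difference.

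Sirt3, the main mitochondrial deacetylase gene, measured 37.7, 9.34, 37.6 and 31.2 CPM across WT, against 24.1, 50.0 and 28.5 CPM across Srp72+/-. WT 2 was far below the other libraries, and Srp72+/- 2 was the highest. Its log2 fold change was 0.24 (standard error 0.49), and -0.05 (standard error 0.31) without WT 2. Sirt7, which encodes a nucleolar sirtuin, measured 23.1, 47.5, 49.9 and 37.3 CPM across WT, against 45.5, 40.2 and 38.4 CPM across Srp72+/-. The Srp72+/- values lay inside the WT range, and the log2 fold change was 0.07 (standard error 0.30), with 0.17 without WT 2 and -0.02 without Srp72+/- 1. Both genes overlap others that were expressed here, Sirt3 with Ric8a and Psmd13 on the opposite strand and Sirt7 with Mafg on the same strand.

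Parp1, which encodes the polymerase that makes ADP-ribose chains at DNA breaks, was the most abundant of the 10 per length. It measured 119.7, 86.8, 107.4 and 118.1 CPM across WT, against 74.3, 92.6 and 119.9 CPM across Srp72+/-. The lowest value of each genotype was in the library with the most mature cell transcripts, WT 2 and Srp72+/- 1. The means were 108.0 ± 15.1 CPM (SD, n = 4) and 95.6 ± 23.0 CPM (SD, n = 3), and the log2 fold change was -0.18 (standard error 0.24), with -0.26 without WT 2 and -0.04 without Srp72+/- 1.

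**Figure D3:**
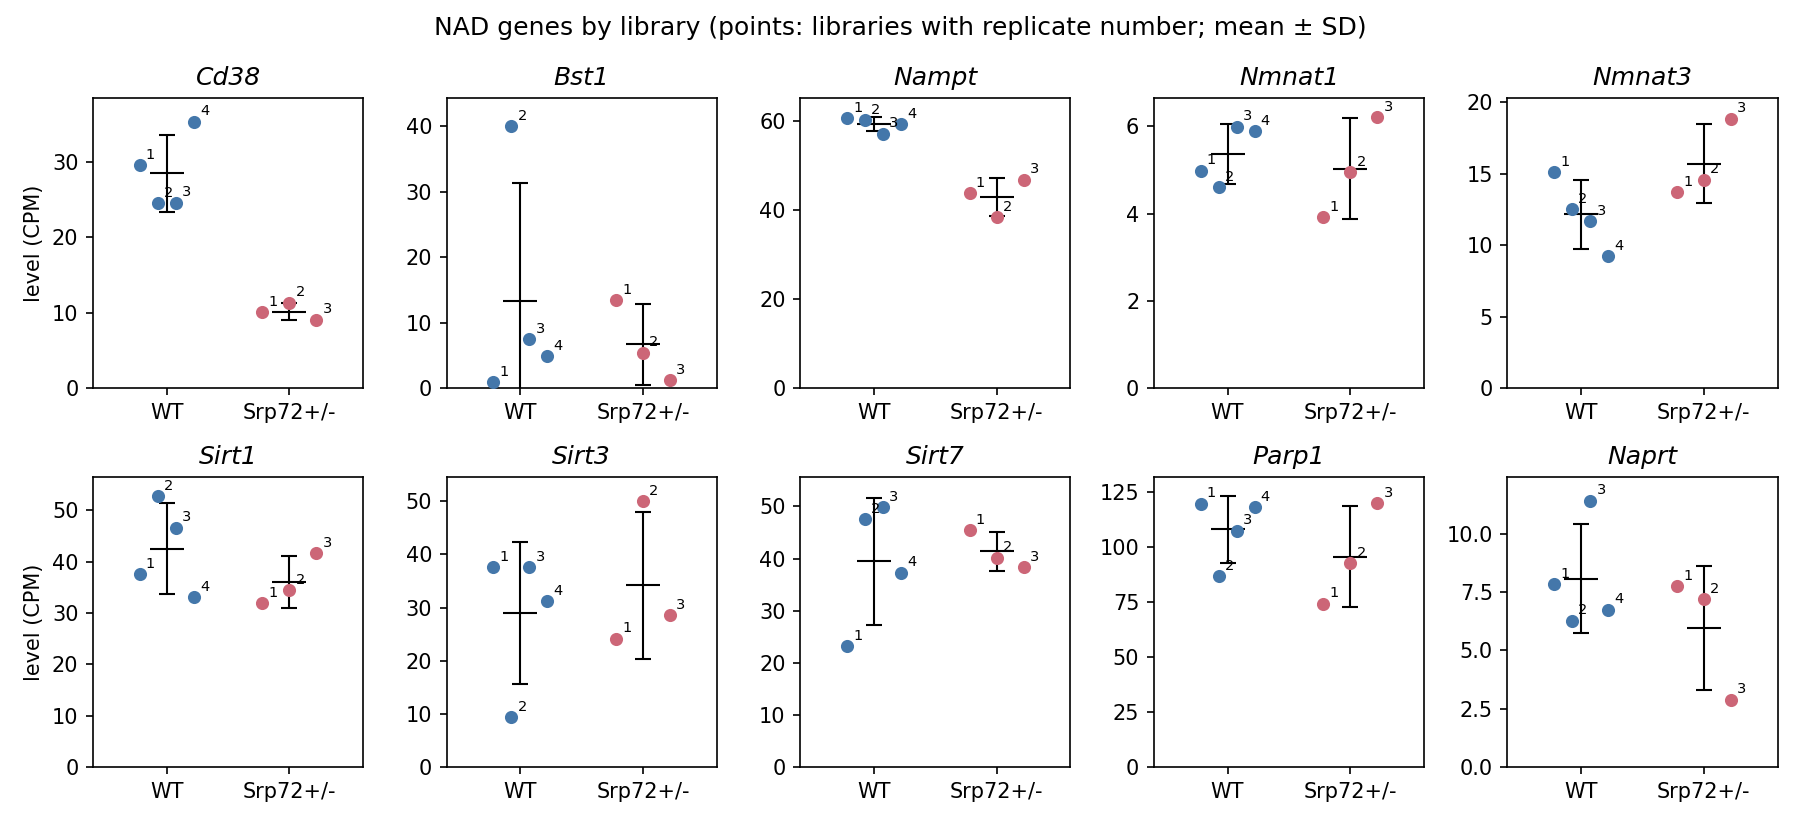
CPM of the 10 NAD genes in each library (points, numbered by replicate), with the mean and SD of each genotype in black and axes that start at 0, below which the lower SD bar of Bst1 in WT would run. Cd38 and Nampt are the panels in which no Srp72+/- point reaches a WT point.

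Per length, the order of the 10 genes was much alike in both genotypes. Mean TPM over the 7 libraries ran from 21.5 for Parp1 through 14.8 for Sirt7, 10.5 for Sirt3, 8.41 for Sirt1, 6.13 for Nampt, 4.53 for Naprt, 3.91 for Nmnat3, 3.41 for Bst1 and 2.82 for Cd38 to 1.10 for Nmnat1. Neighbours in this order overlapped in their ranges over libraries, such as Sirt7 (7.42 to 24.1 TPM) and Sirt3 (1.95 to 20.9 TPM). Parp1 ranked first in 6 of 7 libraries and second in WT 2, where Sirt7 was higher. Cd38 ranked ninth in 5 libraries, sixth in WT 4 and seventh in WT 1. Parp1 and Sirt7, which encode intracellular NAD users, were above Cd38 and Bst1 in every library.

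The wider pathway was described through 9 lists that together hold 77 genes, of which 70 were tested. Of these 70, 0 passed the test in either direction. As 0 of all 20314 tested genes passed, the same was fixed for every list below, and nothing is read from it. Of the 70, 32 were higher and 38 lower in Srp72+/-, against 50.7% lower over all tested genes. Their median log2 fold change was -0.03. For 4 of the 70 (5.71%) the CPM of the genotypes did not overlap, against 3.57% of all genes, and all 4, Cd38, Nampt, Nnt and Parp4, were lower in Srp72+/-. Cd38 and Nampt were in the lists by choice, so this count is not evidence about the pathway.

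Among 6 tested genes of surface NAD glycohydrolases and ADP-ribosyltransferases, 0 passed the test, 4 were lower and 2 higher. Art4, which encodes the Dombrock blood group protein, was the most abundant, at 4.60 CPM in WT 2 and 41.2 to 84.6 CPM in the other WT libraries, and at 29.5 to 80.6 CPM in Srp72+/-. The low Art4 of WT 2 went with its low HSC marker sum, and the log2 fold change was 0.07 with WT 2 and -0.30 without it. Art3 and Art2b, further ADP-ribosyltransferase genes, had WT means of 1.63 and 2.29 CPM and Srp72+/- means of 1.10 and 1.89 CPM. Sarm1, an NAD-cleaving enzyme gene known from axons, and Art1 did not pass the filter on low counts.

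Among 6 tested salvage genes, 0 passed the test, and 4 were lower and 2 higher. Pnp, the purine nucleoside phosphorylase gene, was at 139.6 CPM in WT 2 and 52.4 to 86.0 CPM in the other WT libraries, and at 57.4 to 79.7 CPM in Srp72+/-. Its log2 fold change was -0.42, and -0.11 without WT 2. The nicotinamide riboside kinase genes Nmrk1 and Nmrk2 had log2 fold changes of -0.66 ± 0.45 and 0.79 ± 0.65 (± standard error). Nmnat2, the NMNAT gene of neurons, and Nnmt, which encodes the enzyme that methylates nicotinamide, did not pass the filter. Their absence from the test leaves Nmnat1 and Nmnat3 as the tested NMNAT genes.

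In the Preiss-Handler and de novo routes, 0 of 9 tested genes passed, with 6 higher and 3 lower. Qprt, which turns quinolinic acid into the first mononucleotide of the de novo route, was at 0.959 CPM in WT 2 and 4.56 to 8.81 CPM in the other WT libraries. Its means were 5.38 ± 3.43 CPM in WT (SD, n = 4) against 5.29 ± 1.11 CPM in Srp72+/- (SD, n = 3), and the log2 fold change was -0.02, and -0.37 without WT 2. Nadsyn1, the NAD synthetase gene, had a log2 fold change of 0.11 ± 0.52, and Afmid, of the kynurenine pathway, -0.58 ± 0.80 (± standard error). Without WT 2 they were at 0.36 and -0.09. Ido1 and Ido2, which encode enzymes that open the pathway from tryptophan, did not pass the filter.

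Of 6 genes of NAD kinases, the transhydrogenase and carriers, 0 passed, with 5 lower and 1 higher. Nnt, the mitochondrial transhydrogenase gene, has 2 identifiers in GENCODE M21 that overlap each other. The one with more reads, used here as Nnt, measured 42.0, 38.0, 42.4 and 41.3 CPM across WT, against 35.1, 25.3 and 33.4 CPM across Srp72+/-, without overlap. The other measured 28.6, 1.599, 5.80 and 15.3 CPM across WT, against 14.8, 26.5 and 24.2 CPM across Srp72+/-. Their sum had a mean of 53.7 CPM for WT, against 53.1 CPM for Srp72+/-, and the groups overlapped. The Nnt difference was thus seen for 1 identifier and not for the sum. The part of how reads were divided between the identifiers was not tested.

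All 7 sirtuin genes were tested, 0 passed, and 4 were lower and 3 higher. Sirt7 and Sirt2 took the largest mean shares of the summed sirtuin TPM, 28.2% ± 12.9 and 23.4% ± 6.10 in WT (SD, n = 4) and 27.5% ± 5.9995 and 22.9% ± 7.61 in Srp72+/- (SD, n = 3). Sirt3 took 5.80% in WT 2 and 15.5% to 26.4% in the other 6 libraries. Sirt2, a mainly cytoplasmic deacetylase gene, Sirt5 and Sirt4, both mitochondrial, had log2 fold changes of -0.10 ± 0.27, 0.27 ± 0.25 and -0.03 ± 0.51 (± standard error). The make-up of the family thus differed between the genotypes by less than between libraries of 1 genotype.

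Of 15 genes of the poly-ADP-ribose polymerase family, 0 passed, with 10 lower and 5 higher and a median of -0.16. Parp4, which encodes the vault particle member of the family, measured 62.8, 65.6, 82.8 and 67.8 CPM across WT, against 48.6, 53.7 and 53.3 CPM across Srp72+/-. All Srp72+/- libraries lay below all WT libraries, with a log2 fold change of -0.43 (standard error 0.20). In TPM the Parp4 groups overlapped.

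For the removal of ADP-ribose, 0 of 8 genes passed, with 5 higher and 3 lower. Oard1, Parg and Adprh, whose products take part in this removal, had log2 fold changes of -0.35 ± 0.30, -0.05 ± 0.24 and 0.05 ± 0.36 (± standard error). The channels opened by the products of CD38 had 3 higher and 3 lower genes of 6, and 0 passed. Tpcn1 and Tpcn2, the two-pore channel genes of the lysosome, were at 46.0 ± 24.8 and 7.57 ± 3.15 CPM in WT (SD, n = 4) and 43.0 ± 11.9 and 8.30 ± 1.70 CPM in Srp72+/- (SD, n = 3). Trpm2, the channel gated by ADP-ribose, was at 1.01, 24.2, 8.15 and 7.42 CPM across WT, against 16.3, 13.7 and 1.06 CPM across Srp72+/-, with its lowest levels in WT 1 and Srp72+/- 3, as for Bst1.

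Of 7 genes for the breakdown of extracellular nucleotides, 0 passed, with 5 higher and 2 lower. Entpd1 (CD39) was at 8.52, 33.1, 27.7 and 26.7 CPM across WT, against 18.3, 12.004 and 10.04 CPM across Srp72+/-, overlapping through WT 1. Slc29a1, a nucleoside carrier gene, and Ada, the adenosine deaminase gene, had log2 fold changes of 0.03 ± 0.37 and -0.14 ± 0.82 (± standard error). Without WT 2 the median over the 9 lists together was -0.05, with 36 of 68 tested genes lower.

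**Figure D4:**
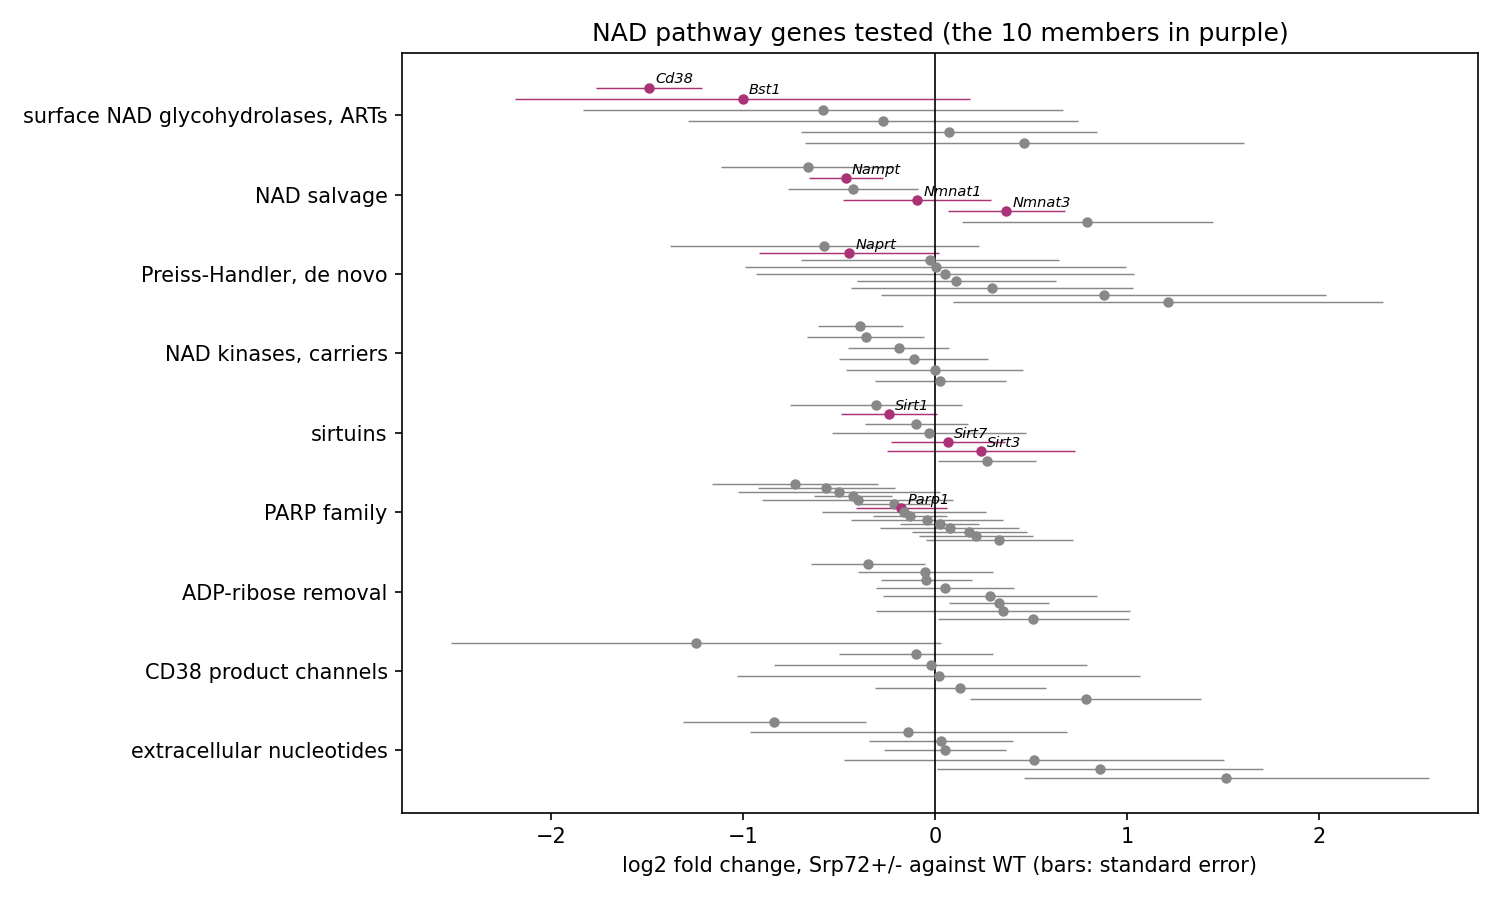
Log2 fold change of Srp72+/- against WT for the 70 tested genes of the 9 NAD pathway lists (points, with standard errors as bars), the 10 followed genes in purple. Cd38, at -1.49, lies lowest with a short bar, and the remaining named genes spread on both sides of 0.

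The genes whose levels ran most like Cd38 were sought among 10142 named protein-coding genes of at least 5 CPM, by Pearson's r of log2 CPM over the 7 libraries. This is a description, as the points share the libraries and the genotype split. The 5 nearest were Slc30a6, a zinc transporter gene (r = 0.96), Fam32a (0.94), Fnta, a farnesyltransferase subunit gene (0.94), Ppm1f, a phosphatase gene (0.93), and Kansl1, a chromatin regulator gene (0.93). Slc30a6 measured 8.46, 8.57, 9.06 and 9.08 CPM across WT, against 6.41, 6.69 and 5.64 CPM across Srp72+/-. Nampt was the closest of the other 9 NAD genes, at rank 24 (r = 0.88), and Nmnat3 the farthest (r = -0.71). Without WT 2 Nampt had the same r of 0.88 but rank 176.

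Over the 6 libraries without WT 2, the 5 nearest genes were Il11ra1, a cytokine receptor gene (r = 0.99), Smim3 (0.99), N4bp2 (0.98), Psma8, a proteasome subunit gene (0.98), and Rps27rt, a retrotransposed copy of Rps27 (0.98). The 2 sets of 5 shared 0 genes. Genes with an r of at least 0.9 numbered 17 over 7 libraries and 130 over 6. Fewer libraries make a high r easier to reach, so nothing is read from this rise. Il11ra1 was at 17.9 to 19.96 CPM in WT 1, WT 3 and WT 4 but at 5.18 CPM in WT 2, unlike Cd38.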

How the data were processed

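The 7 RNA-seq libraries come from sorted LT-HSCs (4 WT, 3 Srp72+/-), grouped by title. The deposited tables hold expected counts (estimated reads) and TPM per transcript, made by the authors with Salmon 0.12.0 per the submitters' processing notes, which name mm10 and GRCm38.p6. The deposited effective lengths were used for the length offset. The sources used here do not give the transcript release or strand setting. Reads carry no molecular identifiers, so any limit drawn from them covers only counting error.

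Of 136288 transcripts, 136176 matched GENCODE M21. The rest, with at most 0.0622% of reads, were not used. Per-gene sums of estimated counts were rounded. Genes passing filterByExpr (minimum count 10, minimum total 15; 20314 genes) were compared with edgeR 4.0.16 (TMM, robust quasi-likelihood test, Benjamini-Hochberg adjustment, threshold 0.05) in R 4.3.3. The procedure was tested on simulated data. Cd38 sequences come from the GENCODE M21 transcripts. The floor of 3 counts equals 0.091 to 0.192 CPM.

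Members, lists and rules were chosen with earlier results of these data known. Named in each pathway list were genes whose CPM groups do not overlap or, failing that, the 3 of highest mean TPM. Alternatives were RLE and upper-quartile scaling, other filters, a length offset, TPM, DESeq2 1.42.0, a replicate block and leaving out libraries.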

Additional observations from a re-analysis of the deposited data

Results flagged for a closer look

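In 41 sets of the 4 WT values (genes, marker list means and the Cd38-201 share), 1 library lay far from the others in 7, by Dixon's ratio of gap to range, whose limit chance passes in about 1 of 20 such sets. Among the 10 NAD genes this was Bst1, at 40.0 CPM in WT 2. Of the other genes, Afmid (11.9 CPM), Adprh (27.4 CPM) and Tpcn1 (82.8 CPM) were also high in WT 2. Nmrk2 was low in WT 1, at 0.448 CPM. In WT 2 the mean log2(CPM + 1) of the HSC identity markers was low, at 2.90, and that of the erythroid markers was high, at 8.05.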

How the results depend on the processing

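The log2 fold change of Cd38 kept its direction in all 17 alternatives, which gave -1.59 to -1.37 except on the TPM scale, where it was -1.13 with a pseudocount of 0.1 and -0.82 with 1. TPM moved the median of all tested genes from -0.0067 to 0.26 and 0.13. For the 10 NAD genes, 16 of 170 alternative values had the opposite sign, 10 moved by more than the spread between libraries, and 3 genes (Cd38, Nmnat3, Naprt) never changed sign. For the 23 other named genes, 78 of 391 had the opposite sign. The number of genes past the threshold was 0 in every edgeR alternative except without WT 4, where 1 passed (Gm28439, not a NAD gene), a range of 0 to 1 with 1 library left out. DESeq2 called 9, which were Cd38, Gpr45 and 7 gene models without names. As Cd38 was chosen on this comparison, its call there supports nothing. The number of genes whose groups do not overlap was 725, with 1216 without a filter, 3827 without WT 2 and Srp72+/- 1, and 1174 to 2432 with 1 library left out, where fewer libraries make separation more frequent. The difference in the Cd38-201 share (Srp72+/- minus WT, -2.40 percentage points) lay between -10.9 and 3.63 in its alternatives.

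Same-numbered libraries had correlations of deviations of -0.32, -0.16 and 0.0018 over genes. The highest between a WT and a Srp72+/- library, 0.395, was for WT 2 with Srp72+/- 1, which had the most mature cell transcripts. The labels give only a number, and these correlations cannot tell whether same-numbered libraries were handled together. With the replicate block 0 genes passed and the Cd38 log2 fold change was -1.37. The block gives no value for groups that do not overlap. The libraries without WT 2 and Srp72+/- 1, the TPM count of separated genes and TPM over the library median were chosen after seeing the data. Depth limits Bst1 (17 reads in its lowest library), Nmnat1 (72) and Naprt (95) most.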

Other observations

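Within 1 Mb of Cd38 on chromosome 5, 7 other protein-coding genes were tested, chosen after their values were seen. In CPM their genotypes overlapped in all 7, with 6 lower and 1 higher in Srp72+/- and a median log2 fold change of -0.56. Without WT 2 they were 5 lower and 2 higher, with a median of -0.05. Fbxl5, an iron-sensing ubiquitin ligase gene, was at -0.67 ± 0.49 (± standard error), and -0.05 without WT 2. Prom1, which encodes the surface protein CD133, was at -1.06 ± 1.10, and 0.46 without WT 2. Tapt1 was at -0.34 ± 0.25, and -0.25 without WT 2. In TPM the groups did not overlap for 2 of the 7, Tapt1 (lower) and Ldb2 (higher), against 938 of all 20314 tested genes (4.62%). Ldb2 rests on 9 to 32 reads per library, and its log2 fold change from counts was -0.29 ± 0.57 (± standard error). The groups of Cd38 separated in CPM and overlapped in TPM. Srp72 lies on the same chromosome, 33.1 Mb beyond the end of Cd38.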
